A study of Homo sapiens with 4 samples.

Results

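The genes described here are 7 genes of the HOXA cluster (HOXA3, HOXA5, HOXA6, HOXA7, HOXA9, HOXA10 and HOXA11) and 3 genes that act with them in leukemia, MEIS1, PBX3 and MEF2C. They were taken by symbol through their Ensembl identifiers, and all 10 were among the 20348 genes of the deposited count table. Poly(A) RNA was sequenced from 2 established human leukemia cell lines, K562 and THP-1, grown for 72 h with 100 nM periplocin, a cardiac glycoside from the root bark of Periploca sepium, or with DMSO, the solvent. K562 came from a chronic myeloid leukemia in blast crisis and carries the BCR::ABL1 fusion, and THP-1 came from an acute monocytic leukemia and carries the KMT2A::MLLT3 fusion. The control libraries are named for DMSO but are also labelled as blank controls. Each of the 4 conditions was 1 library of 1 culture of a long-passaged line, so no difference here has a replicate check. The tests and intervals compare libraries and cover counting error only.

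HOXA genes encode homeodomain transcription factors that are laid out along the cluster roughly in the order in which they are used along the body axis. In blood, the middle and posterior HOXA genes are active in stem and progenitor cells and are normally shut off as cells mature. MEIS1 and PBX3 belong to the TALE class of homeodomain proteins, which bind DNA together with HOXA9, and MEF2C is a MADS-box factor of myeloid and lymphoid progenitors. Fusions of KMT2A, a histone methyltransferase, are known to keep HOXA9, MEIS1, PBX3 and MEF2C active in acute leukemia, which is why these genes are read as 1 programme in lines such as THP-1.

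The HOXA cluster lies on chromosome 7 (coordinates in GRCh38), and the 7 HOXA genes of the set are on its minus strand. HOXA9 (ENSG00000078399, chr7:27162435-27175180) and HOXA10 (ENSG00000253293, chr7:27170591-27180261) overlap each other in the GENCODE 29 annotation, so reads from shared stretches could have been assigned to either. HOXA3 (ENSG00000105997, chr7:27106184-27152581) has a long span that contains HOXA5 (ENSG00000106004, chr7:27141052-27143668) and HOXA6 (ENSG00000106006, chr7:27145396-27150603). HOXA7 (ENSG00000122592, chr7:27153716-27157936) and HOXA11 (ENSG00000005073, chr7:27181510-27185223) share their spans with antisense genes, as do the other HOXA genes of the set, MEIS1 and MEF2C, and the library kit did not mark strand. MEIS1 (ENSG00000143995) lies at chr2:66433452-66573869, PBX3 (ENSG00000167081) at chr9:125747345-125967377 and MEF2C (ENSG00000081189) at chr5:88717117-88904257.

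The start-site windows of HOXA9, HOXA10 and MEIS1 are printed because of their patterns over the libraries. HOXA9 and HOXA10 shared a pattern, high in THP-1, while MEIS1 was higher in K562 than in THP-1. Each run holds the 250 bases before a RefSeq transcript start (GRCh38.p14), written 5′ to 3′ on the gene's strand. The 3 windows lie within their genes' spans and overlap no annotated exon, and a further HOXA10 window that lies in exons is not shown. Capitals mark matches, on either strand, to CCAAT (the CCAAT box) and TATAAA (the TATA box).
HOXA9, chr7:27165538-27165787, minus strand: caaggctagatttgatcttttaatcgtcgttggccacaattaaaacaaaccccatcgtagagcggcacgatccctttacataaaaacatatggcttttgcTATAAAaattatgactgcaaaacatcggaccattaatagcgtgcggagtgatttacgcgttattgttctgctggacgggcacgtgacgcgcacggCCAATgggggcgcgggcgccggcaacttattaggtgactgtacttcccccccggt
HOXA10, chr7:27174321-27174570, minus strand: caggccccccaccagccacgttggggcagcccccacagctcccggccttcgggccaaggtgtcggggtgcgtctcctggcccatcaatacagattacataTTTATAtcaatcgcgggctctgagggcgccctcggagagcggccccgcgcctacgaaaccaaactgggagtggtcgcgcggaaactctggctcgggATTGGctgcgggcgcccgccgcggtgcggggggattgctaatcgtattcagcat
MEIS1, chr2:66434875-66435124, plus strand: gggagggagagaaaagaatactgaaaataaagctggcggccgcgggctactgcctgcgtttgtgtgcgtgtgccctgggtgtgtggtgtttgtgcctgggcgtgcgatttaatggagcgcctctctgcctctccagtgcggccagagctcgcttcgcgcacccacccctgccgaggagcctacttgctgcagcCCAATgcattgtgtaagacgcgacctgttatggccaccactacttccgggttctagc

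The HOXA9 and HOXA10 windows printed had matches at like places, with TATA 150 bases before the start in both and CCAAT 55 and 54 bases before it. In HOXA9 both matches read along the gene's strand, and in the printed HOXA10 window both read on the opposite strand. The HOXA10 window not shown differed, with CCAAT 249 and TATA 222 bases before its start, both along the gene's strand. The MEIS1 window had a CCAAT match 57 bases before its start and no TATA match. Among all 35116 windows of this length, 32.0% held CCAAT and 10.7% held TATAAA. The HOXA9, HOXA10 and MEIS1 windows held 20, 24 and 16 CpG dinucleotides against a median of 11. Windows were found for 9 of the 10 genes, 22 in all, and none is shown for HOXA5. Matches to the MEIS-type TGACAG (13.0% of all windows) and the PBX-HOX-type TGATNNAT (6.47%), searched on both strands, were absent from the 3 windows printed. Among the windows not printed, the PBX3 window and some MEF2C windows held the MEIS-type. A MEF2C window also held the PBX-HOX-type. These are matches of letters only and do not show binding.

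The 4 libraries held between 16381158 and 20622681 counts each. Mitochondrial genes took 5.62% and 2.07% of counts in K562 (DMSO, then periplocin) and 5.24% and 3.92% in THP-1. The markers of each line were present: all 10 erythroid and megakaryocytic markers (GATA1, KLF1, the globins and others) were above 3 counts in both K562 libraries, and all 10 monocytic and myeloid markers (SPI1, LYZ, CD33 and others) were above 3 counts in both THP-1 libraries. Detection alone did not separate the lines, since 7 of the 10 myeloid markers passed 3 counts in each K562 library and 6 and 5 of the 10 erythroid markers in THP-1. Between the untreated lines, all 10 erythroid markers were called lower in THP-1, beside 21.7% of all tested genes. Of 9 myeloid markers tested 8 were called higher, beside 24.4% of all tested genes, and CEBPB was lower, at 1429 counts in K562 and 530 in THP-1. Of these calls, 6 of the 10 erythroid and 2 of the 8 myeloid had fewer than 10 counts in the lower line. Those markers reached the minimum for testing, 10 counts, through the other line alone. Lymphoid markers summed to between 7.06 and 12.3 CPM (counts-per-million values, each count relative to its library's total) in the 4 libraries.

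The HOXA part of the set was active in THP-1 and close to silent in K562. In THP-1, 10 of the 10 genes were above 3 counts with DMSO and 9 with periplocin, and in K562 these numbers were 7 and 5. Summed over the 7 HOXA genes, THP-1 had 3639 and 3547 counts and K562 had 37 and 18, DMSO first in each pair of values here and in what follows. MEIS1 went against this picture and was near absent from THP-1.

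**Figure D1:**
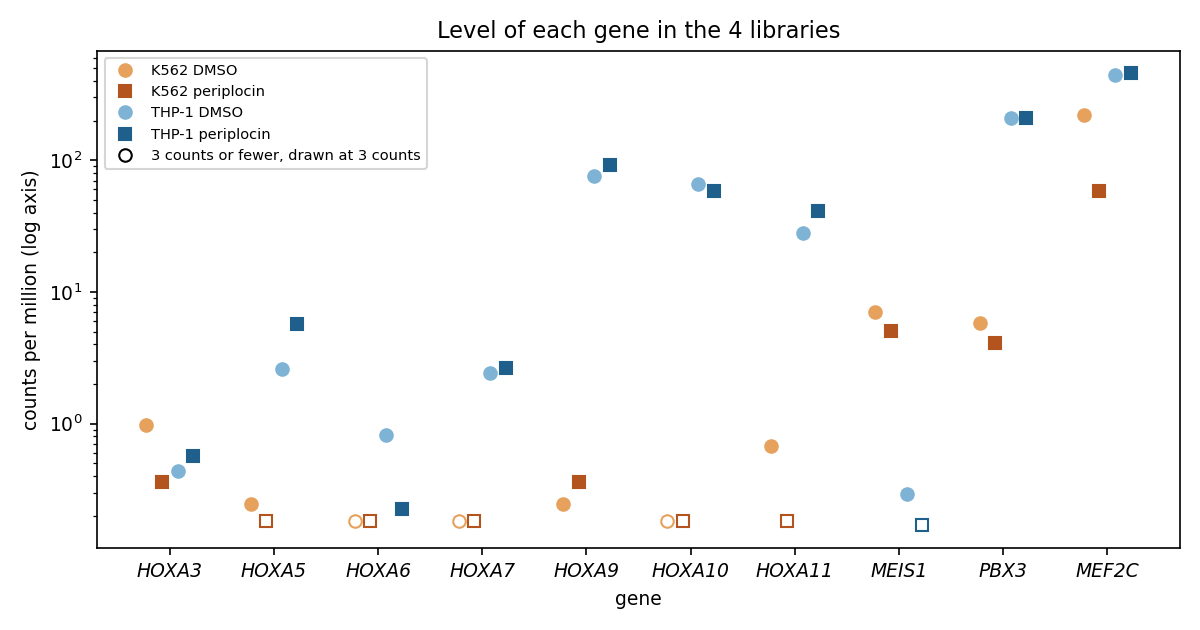
Level of each of the 10 genes in CPM on a log axis, with 1 point per library, circles for DMSO and squares for periplocin. Open points mark 3 counts or fewer and are drawn at the level of 3 counts. HOXA9, HOXA10, HOXA11 and PBX3 stood between 27.9 and 207 CPM in THP-1 and at or below 5.80 CPM in K562, whereas MEIS1 was at 7.08 and 5.01 CPM in K562 and below 0.3 CPM in THP-1.

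HOXA9, which maintains self-renewal of progenitors and is the best known HOX gene of KMT2A-fusion leukemia, had 1572 and 1620 counts in THP-1 (DMSO, then periplocin), or 76.2 and 91.4 CPM. In K562 it had 4 and 6 counts, 0.244 and 0.362 CPM. HOXA10, its neighbor and a regulator of myeloid progenitor growth, had 1361 and 1034 counts in THP-1 and 1 and 3 counts in K562. Both genes were thus abundant in THP-1 libraries and at the edge of detection in K562. HOXA11, best known from limb, kidney and uterus development, had 576 and 731 counts in THP-1 DMSO and periplocin, and 11 and 0 counts in K562. The 0 in K562 periplocin allows a level of up to 0.181 CPM.

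The anterior and middle genes were much lower. HOXA5, a gene of lung and gut patterning that is also expressed in myeloid progenitors, had 54 and 101 counts in THP-1 DMSO and periplocin and 4 and 1 in K562. HOXA7 had 50 and 47 counts in THP-1 and 0 and 1 in K562. Both genes were therefore present in THP-1 at low depth and not reliably detected in K562. HOXA6 had 17 and 4 counts in THP-1 and 1 in each K562 library. HOXA3, known from thymus and parathyroid development, had 16 and 6 counts in K562 and 9 and 10 in THP-1, and was the only HOXA gene of the set with more counts in K562 DMSO than in THP-1 DMSO. Because HOXA3 shares its span with HOXA5 and HOXA6, its few counts were uncertain in origin.

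HOXA9, HOXA10 and HOXA11 together took 96.4% of the counts of the 7 HOXA genes in untreated THP-1 (95% exact binomial interval 95.8 to 97.0) and 95.4% after periplocin (94.7 to 96.1). On a per-length scale, in CPM per kb of exon, the levels in THP-1 DMSO were 25.2 for HOXA9, 17.8 for HOXA10 and 12.1 for HOXA11, then 1.53 for HOXA5, 1.01 for HOXA7, 0.641 for HOXA6 and 0.101 for HOXA3. The step from HOXA11 to HOXA5 was 7.89-fold (5.96 to 10.6). HOXA7 and HOXA6 could not be ordered, with a ratio of 1.57 and a counting interval of 0.889 to 2.90. The cluster therefore had a low stretch around HOXA3 to HOXA7 and a high stretch from HOXA9 onward in THP-1.

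HOXA13, HOXA4 and HOXA2, cluster genes outside the set, followed the same split along the cluster. HOXA13, at the posterior end, had 1685 and 1221 counts in THP-1 DMSO and periplocin and 0 and 1 in K562, 16.1 and 13.5 CPM per kb in THP-1. HOXA2 had 3 counts or fewer in each library, and HOXA4 had 22 and 35 counts in THP-1 and 0 and 3 in K562. The nearest protein-coding genes beyond the cluster differed between the sides. SKAP2, on the anterior side, had 421 and 370 counts in K562 and 1849 and 1579 in THP-1. EVX1, 42.59 kb away on the HOXA13 side, had at most 3 counts in any library.

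**Figure D2:**
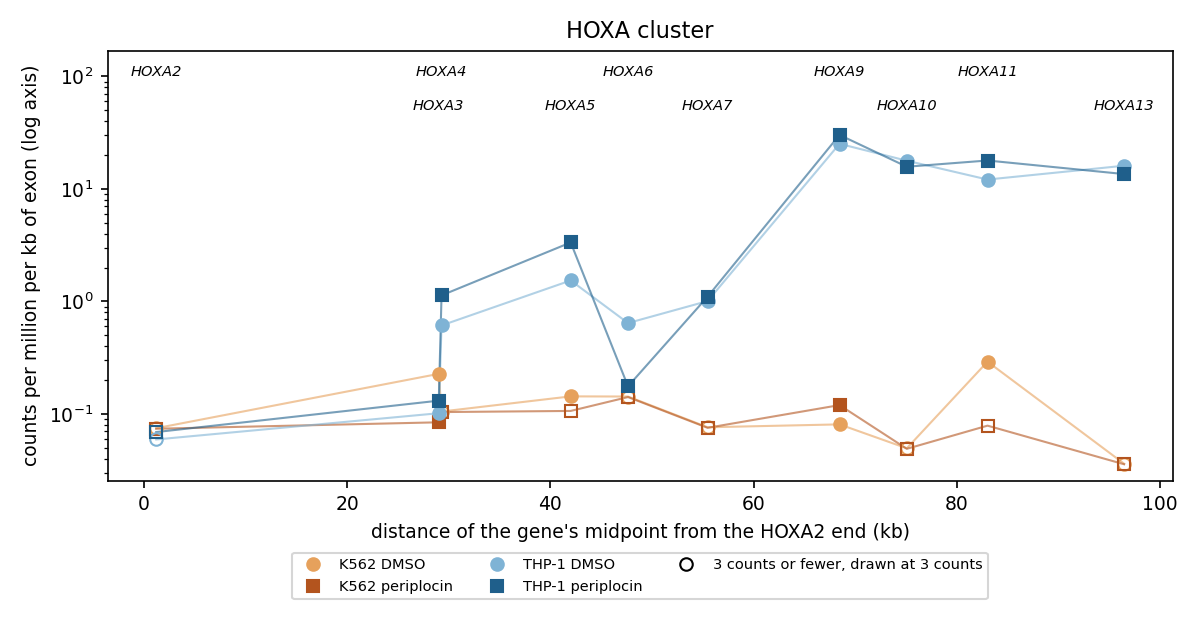
CPM per kb of exon, on a log axis, for 10 HOXA genes against the distance of each gene's midpoint from the HOXA2 end of the plotted stretch, with 1 trace per library. Open points mark 3 counts or fewer, drawn at 3 counts. Both THP-1 traces step up between HOXA7 and HOXA9, from 1.01 to 25.2 CPM per kb in DMSO, while both K562 traces stay at or below 0.291 CPM per kb.

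PBX3, which helps HOX proteins choose their sites, had 4279 and 3676 counts in THP-1 DMSO and periplocin and 95 and 68 in K562. Its level was 207 CPM in both THP-1 libraries, against 5.80 and 4.11 CPM in K562. Per kb of exon PBX3 was the highest of the 10 genes in THP-1 DMSO, at 45.8 CPM per kb, 1.22-fold above MEF2C (1.18 to 1.27). PBX3 was therefore abundant in THP-1 and low, but detected, in K562. MEIS1, the cofactor that speeds HOXA9-driven leukemia, had 6 and 3 counts in THP-1 and 116 and 83 in K562. At 0.291 and 0.169 CPM it ranked last of the 10 per kb in both THP-1 libraries. MEIS1 therefore did not share the pattern of HOXA9 and PBX3, and in these libraries THP-1 had almost no counts of 1 of the genes that KMT2A fusions are known to keep active.

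MEF2C had 9067 and 8089 counts in THP-1 DMSO and periplocin, and 3607 and 961 in K562. It was the one gene of the set with a high level in both lines under DMSO, 220 CPM in K562 and 440 CPM in THP-1. In K562 DMSO the per-kb order was MEF2C at 18.7, PBX3 at 1.28 and MEIS1 at 0.648 CPM per kb, each above the next beyond counting error. The HOXA genes followed from 0.291 CPM per kb for HOXA11 downward, and no pair of neighbors among them differed beyond counting error.

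Untreated THP-1 was first set against untreated K562. All 10 genes were tested, with an exact binomial test on the counts after TMM scaling and Benjamini-Hochberg adjustment over 14137 genes; a gene was called at an adjusted p below 0.05 and a change of at least 2-fold. In THP-1, 8 genes were higher and 1 was lower, against 24.4% of all tested genes called higher, 21.7% called lower and 46.1% called either way. The median log2 fold change of the 10 genes was 4.50, or 3.79 with HOXA7 at its bound, beside 0.04 over all genes. HOXA5, HOXA6, HOXA7, HOXA9 and HOXA10 reached the minimum of 10 counts through THP-1 alone, and MEIS1 through K562 alone, so these counts and medians are descriptions.

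HOXA9 was 339-fold higher in THP-1 (95% counting interval 132 to 1247) and PBX3 was 38.9-fold higher (31.7 to 48.2). HOXA11 was 45.2-fold higher (25.1 to 91.1) and HOXA5 was 11.7-fold higher (4.30 to 44.3). The HOXA10 ratio was 1176, but it rested on 1 count in K562 and its lower bound was 211. HOXA6 also rested on 1 count, with a ratio of 14.7 (2.30 to 614), and HOXA7, at 0 counts in K562, was at least 14.4-fold higher against a floor of 3 counts. The posterior HOXA genes and PBX3 thus had intervals far from 1, and the low middle genes had wide ones.

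MEF2C was 2.17-fold higher in THP-1 (2.09 to 2.26). TMM scaling raised every THP-1 to K562 ratio by 0.121 on the log2 scale over plain library totals, and MEF2C, at log2 1.12 with TMM, came to log2 1.00 without it and lost its call at the 2-fold limit. MEIS1 was 22.4-fold lower in THP-1 (9.98 to 62.2). HOXA3, with a log2 fold change of -1.03, was not called (edgeR exact test, adjusted p = 0.12).

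A fit over all 4 libraries with terms for line and treatment had 1 residual degree of freedom, and its error measured how far the responses of the lines differed. In edgeR's quasi-likelihood test, 8 of the 9 genes that could be fitted passed for the line term at an adjusted p below 0.05, beside 35.6% of all 13584 genes. HOXA3 did not pass (adjusted p = 0.90), and HOXA6 was too low to enter. DESeq2 also passed 8 of 9, beside 34.0% of genes. Entry to the fit needed at least 10 counts in at least 2 libraries. HOXA5, HOXA7, HOXA9 and HOXA10 met this through the THP-1 libraries alone, and MEIS1 through the K562 libraries alone. The numbers passing for line are therefore descriptions. In this fit MEF2C differed between the lines by 2.11 on the log2 scale (adjusted p = 0.026) and MEIS1 by -4.56 (adjusted p = 0.0065).

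The HOXB and HOXC clusters had the reverse pattern. HOXA genes made up 93.4% and 92.8% of all HOX counts in THP-1 DMSO and periplocin, and 2.20% and 2.08% in K562. HOXB genes made up 90.5% and 83.3% in K562, led by HOXB9, and 6.35% and 6.81% in THP-1. HOXC genes took 7.02% and 14.6% in K562 and under 0.4% in THP-1, and HOXD genes had at most 30 counts in any library. Of the 28 HOXB, HOXC and HOXD genes, 17 were tested between the lines and 15 were lower in THP-1, 1 higher and 1 not called, beside 21.7% lower and 24.4% higher over all genes. Of the 15, 11 had fewer than 10 counts in THP-1 and reached the minimum through K562 alone.

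**Figure D3:**
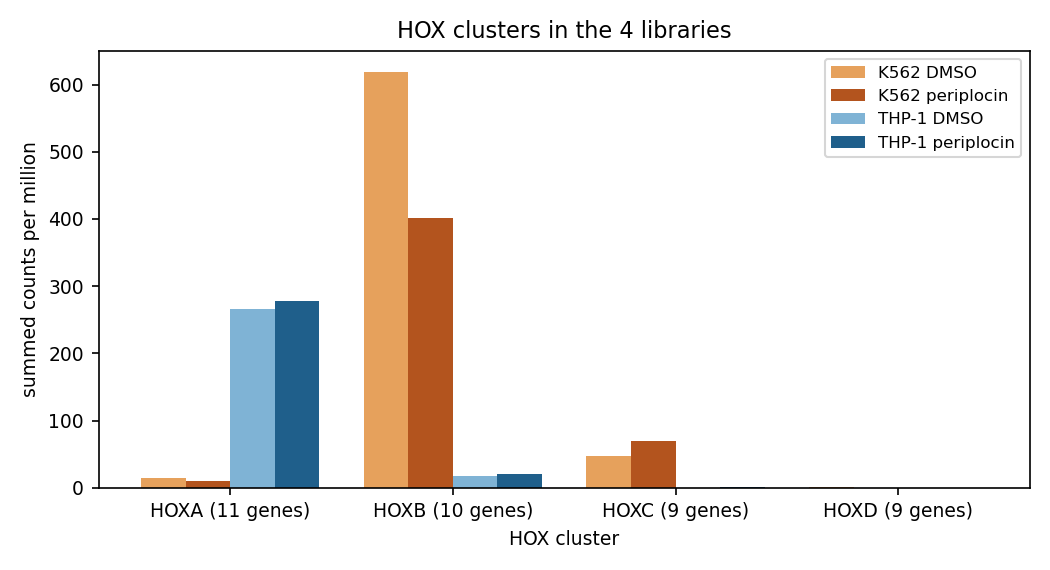
Summed CPM of each HOX cluster in the 4 libraries, with 1 bar per library and the axis starting at 0. HOXA reaches 265 and 278 CPM in THP-1 and 15.1 and 10.02 CPM in K562, while HOXB reaches 619 and 401 CPM in K562 and 18.0 and 20.4 CPM in THP-1.

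Periplocin was then compared with DMSO within K562. MEF2C fell 3.82-fold (3.56 to 4.11), from 220 to 58.0 CPM, a log2 fold change of -1.93 (SE 0.05). HOXA11 went from 11 counts to 0 and was at least 3.73-fold lower against the 3-count floor. HOXA3 had 16 counts with DMSO and 6 with periplocin (log2 -1.42, SE 0.68, exact test adjusted p = 0.046), a call lost with DESeq2 size factors, which gave a log2 fold change of -1.40. MEF2C, HOXA11 and HOXA3 were the 3 genes called lower, of 6 tested, and none was called higher. The 3 calls were lost at a dispersion of 0.16, and HOXA11 and HOXA3 reached the minimum of 10 counts through the DMSO library alone. Among all 13075 genes tested, 12.0% were called lower, 9.77% higher and 21.8% either way. The median over the 6 tested genes was a log2 fold change of -0.97, beside -0.02 over all genes.

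The partners MEIS1 and PBX3 did not reach 2-fold in K562. MEIS1 went from 116 to 83 counts (log2 -0.51, SE 0.21, exact test adjusted p = 0.023) and PBX3 from 95 to 68 (log2 -0.51, SE 0.23, exact test adjusted p = 0.039). HOXA9 stood at 4 and 6 counts, with an interval for the ratio of 0.349 to 7.10, so that a change was not detectable at this depth. HOXA5, HOXA6, HOXA7 and HOXA10 had fewer than 10 counts over the 2 K562 libraries and were not tested.

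The MEF2C fall in K562 went with a shift in the markers of the line itself. Of the 10 erythroid and megakaryocytic markers 9 were called higher after periplocin, beside 9.77% of all genes. Summed over these 10 markers, the level went from 2700 to 10981 CPM. Single markers stood at 18.6 to 770 CPM before and 57.5 to 3503 CPM after. Of 8 monocytic and myeloid markers tested in K562, 2 were higher and 4 lower, beside 9.77% and 12.0% of all genes. In the lower library, 1 of the 2 and 2 of the 4 had fewer than 10 counts. The summed level of the 10 myeloid markers went from 180 to 124 CPM. The mitochondrial share went from 5.62% to 2.07%. The part of these shifts in the MEF2C result was not tested, and in bulk RNA fewer cells that express a gene and less RNA per cell cannot be told apart.

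In THP-1, the posterior HOXA genes, PBX3 and MEF2C were within 2-fold of DMSO after periplocin. HOXA9 had a log2 fold change of 0.27 (SE 0.05) and HOXA10 of -0.17 (SE 0.06). HOXA11 stood at 0.57 (SE 0.08), a ratio of 1.49 (1.33 to 1.66). These differences were beyond counting error but below 2-fold, and HOXA9 and HOXA10, which overlap in the annotation, had opposite signs. PBX3 had a ratio of 1.01 (0.964 to 1.05) and MEF2C of 1.05 (1.02 to 1.08), the narrowest intervals of the set.

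HOXA5 and HOXA6 were called in THP-1, in opposite directions. HOXA5 went from 2.62 to 5.70 CPM, a rise of 1.13 on the log2 scale (SE 0.24, exact test adjusted p = 5e-06). HOXA6 dropped to 4 counts from 17 (log2 -1.83, SE 0.79, exact test adjusted p = 0.022). It reached the minimum of 10 counts through the DMSO library alone, where it was high. With a dispersion of 0.01 in place of 0 the HOXA6 call was lost, and with 0.04 that of HOXA5 as well. The neighbors HOXA7 and HOXA3 were not called, at 0.14 (SE 0.29) and 0.38 (SE 0.66). Of the 9 genes tested, 1 was higher and 1 lower, beside 9.05% higher, 11.3% lower and 20.3% either way among 13679 genes, so the set was called at about the rate of all genes. MEIS1, at 6 and 3 counts, was not tested. The monocytic and myeloid markers summed to 1041 CPM in DMSO and 1184 CPM in periplocin, with 3 of 10 higher and 1 lower. FCGR1A went from 83.6 to 226 CPM, ITGAM from 27.7 to 60.0 CPM and CD14 from 0.388 to 21.6 CPM. MPO went from 2.09 to 0.79 CPM. CD14, at 8 counts in DMSO, reached the minimum of 10 counts through the periplocin library alone. The part of these marker shifts in the values of the set was not tested.

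**Figure D4:**
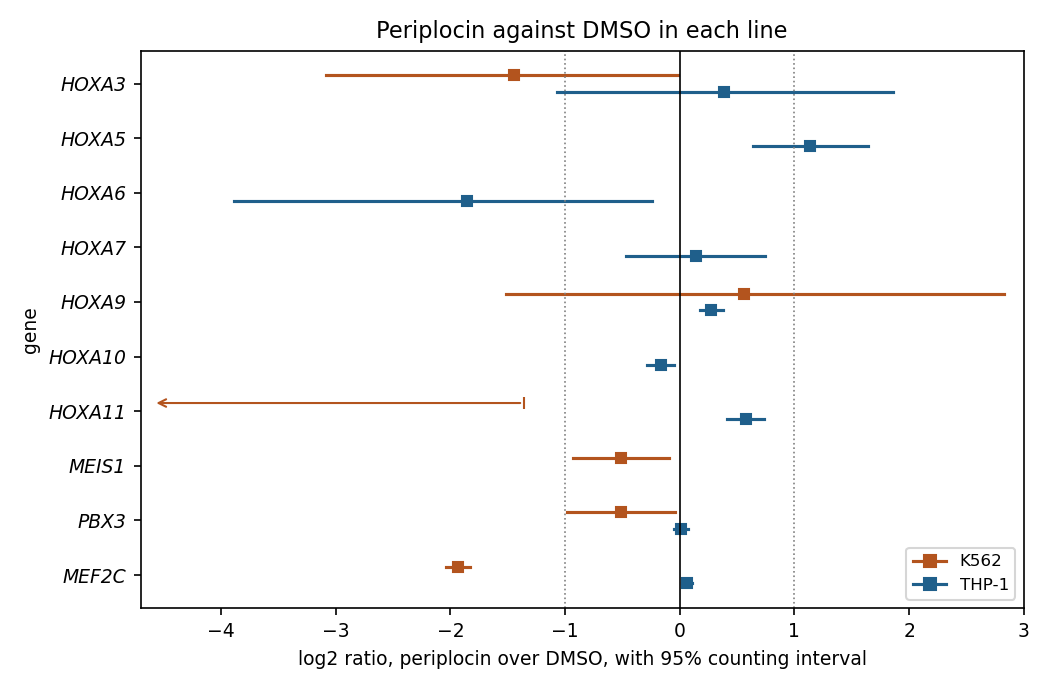
Log2 ratio of periplocin over DMSO for each gene that was tested in K562 (brown) and THP-1 (blue), with 95% exact counting intervals and dotted lines at a 2-fold change. The arrow for HOXA11 in K562 starts at the upper end of its interval, since its count after periplocin was 0. MEF2C in K562 lies at -1.93 with a narrow interval, HOXA5 in THP-1 lies above 1, and HOXA9, HOXA10, HOXA11, PBX3 and MEF2C in THP-1 lie between the dotted lines.

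The responses of the lines were compared directly for the 4 genes that had more than 3 counts in each library. MEF2C differed, with a THP-1 log2 fold change 1.99 above that in K562 (SE 0.06, 95% interval 1.88 to 2.10). A difference of at least 2-fold was called in 20.7% of the 11663 genes that could be compared. PBX3 differed by 0.51 (0.06 to 0.97, edgeR adjusted p = 0.048), short of 2-fold. HOXA3 differed by 1.79 and HOXA9 by -0.28, with intervals of -0.07 to 3.66 and -2.08 to 1.53 that held 0. In the 4-library fit no gene of the set passed for treatment in edgeR or DESeq2, at an adjusted or unadjusted p. There edgeR passed 0 of 13584 genes, with 1500 at an unadjusted p below 0.05, and DESeq2 passed 125 (0.920%).

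The regulators of the programme were followed through a list of 20 genes, KMT2A and proteins that work with it or with its fusions. None of the 20 was called in THP-1 after periplocin and 1 of 20 was called in K562, beside the 20.3% and 21.8% of all genes. KMT2A itself had 6234 and 8522 counts in K562 DMSO and periplocin, and 3760 and 3479 in THP-1. MLLT3, the fusion partner in THP-1, had 81 and 86 counts in K562 and 221 and 154 in THP-1. Gene counts do not separate fusion reads from those of the intact genes. MEN1, the scaffold that holds KMT2A on HOXA promoters, had 789 and 999 counts in K562 and 1189 and 618 in THP-1, where its log2 fold change was -0.71 (SE 0.07). DOT1L, the H3K79 methyltransferase recruited by the fusion, had 1941 and 2725 counts in K562 and 3755 and 2836 in THP-1, where its log2 fold change was -0.17 (SE 0.04). ELL2, an elongation factor of the same complexes, was the gene called in K562, with 1001 and 2397 counts and a log2 fold change of 1.23 (SE 0.05).

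Genes linked to KMT2A fusions or to HOXA9 as targets included 7 that fell in THP-1. Of 21 such genes 18 were tested there, 7 were lower and 1 was higher, beside 11.3% lower and 9.05% higher over all genes, and the median log2 fold change was -0.70 beside -0.03 over all genes. LAMP5, a lysosome-associated membrane protein raised in KMT2A-rearranged leukemia, fell from 87.9 to 17.6 CPM, a log2 fold change of -2.31 (SE 0.09). MYC, the growth-promoting transcription factor, fell from 286 to 57.8 CPM (log2 -2.29, SE 0.05). BCL2, the survival gene, fell from 365 to 99.1 CPM (log2 -1.87, SE 0.04). These are a marker, a growth gene and a survival gene. HOXA9 RNA was at 1.21 times its DMSO level in the same library, and a link between HOXA9 and these genes was not tested. The proteoglycan gene CSPG4 fell from 19.9 to 7.67 CPM, and FLT3, the receptor tyrosine kinase of progenitors, from 105 to 42.0 CPM. The other calls, named after their values were seen, were IGF1R and RUNX2, lower at 106 and 26 and at 7363 and 2605 counts, and PIM1, a survival kinase, which rose from 9.94 to 22.1 CPM.

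In K562, 17 of the 21 linked genes were tested, 3 were lower and 1 was higher, beside 12.0% lower and 9.77% higher over all genes, with a median log2 fold change of -0.21 beside -0.02. The list was thus called at about the rate of all genes in K562. BCL2 fell from 40.2 to 7.73 CPM (log2 -2.39, SE 0.14) and MYB, a factor of immature blood cells, from 493 to 157 CPM (log2 -1.66, SE 0.03). ZNF521 fell from 18.6 to 6.46 CPM and CPEB2 rose from 12.4 to 32.8 CPM. BCL2 was called lower in both lines, while MYB had a log2 fold change of -0.99 (SE 0.02) in THP-1 and MYC one of -0.91 (SE 0.03) in K562, both short of 2-fold.

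**Figure D5:**
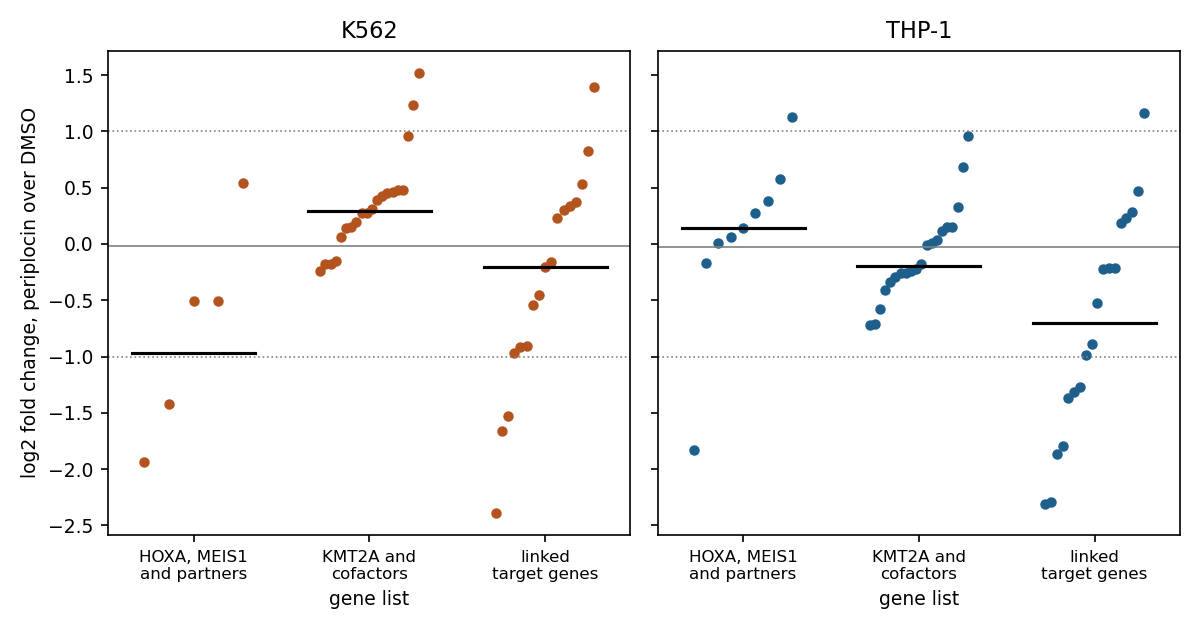
Log2 fold change of periplocin over DMSO for each tested gene of 3 lists in K562 (left) and THP-1 (right), with a black bar at the list median, a grey line at the median over all genes and dotted lines at 2-fold. Genes at 0 counts in a library, HOXA11 in K562, are not drawn, and points past a dotted line were not all called. In THP-1 the linked target genes have a median of -0.70, and the 9 tested genes of the set one of 0.14.

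MEF2B, a relative of MEF2C, fell in K562 as MEF2C did. MEF2A, at 68.2 and 56.2 CPM, and MEF2D, at 30.1 and 43.1 CPM, were not called there. Of 13 TALE and MEF2 relatives 12 were tested in each line. In K562, 3 were lower and 1 was higher, beside 12.0% and 9.77% of all genes. MEF2B fell from 14.9 to 3.06 CPM and TGIF1, a repressor of the TALE class, from 51.8 to 24.0 CPM. MEIS3, at 35 and 5 counts, was the other one called lower and was named after its values were seen. It reached the minimum of 10 counts through the DMSO library alone. In THP-1 TGIF1 alone was called, beside 20.3% of all genes, and it rose from 7.52 to 16.5 CPM. MEF2D went from 650 to 327 CPM in THP-1, just short of the 2-fold limit. MEF2A and MEF2D were named after their values were seen. The difference in number of calls between the lines was not tested.

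Among the HOXB, HOXC and HOXD genes, 18 were tested in K562 and 6 in THP-1. In K562, 3 were lower and 2 higher, beside the 12.0% and 9.77% of all genes. HOXB9, the most abundant HOX gene of K562, fell from 402 to 198 CPM (log2 -1.04, SE 0.03), and HOXC13 rose from 7.14 to 23.4 CPM (log2 1.70, SE 0.15). HOXD8 and HOXC4 were called lower at 30 and 2 and at 18 and 6 counts, and HOXB1 was called higher at 0 and 11 counts. These low genes were named after their values were seen. Each of them reached the minimum of 10 counts only through the library where it was high. None of the 6 was called in THP-1, beside 20.3% of all genes, and neither were HOXA4 and HOXA13. Polycomb and HOX boundary regulators, which hold HOX clusters silent or open them, had 0 of 13 called in K562, beside 21.8% of all genes. In THP-1, 1 of 12 was higher and 1 lower, beside 9.05% and 11.3%, so the list was called at about the rate of all genes. KDM6B, an H3K27 demethylase, rose from 13.5 to 43.7 CPM and CBX2, a Polycomb subunit, fell from 24.5 to 10.04 CPM.

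The genes whose share of signal over the 4 libraries was most like that of HOXA9, among 9784 genes that averaged 10 CPM or more, were SLA, TTC39C and PCDHAC2, with summed share differences of 0.00502, 0.00516 and 0.00659. For PBX3 they were PPCS (0.00843), CRYBG1 (0.0139) and CD37 (0.0170). MEIS1 was closest to GATA2, LONRF2 and GABBR1, at 0.0232, 0.0279 and 0.0426, and GATA2, a stem and progenitor factor, had 4008 and 2864 counts in K562 and 306 and 98 in THP-1. MEF2C was closest to IL4R (0.0426), DEF6 (0.0560) and SPATS2L (0.0567). The measure ran over only 4 libraries and is a description.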

How the data were processed

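Poly(A) RNA libraries of K562 and THP-1 were described by the submitters as Illumina and in the methods as T7 runs. Per the submitters' processing notes, reads were aligned to hg38 with HISAT2 and assembled with StringTie 1.3.1, and the deposited table holds the authors' expected counts per gene, of which 87.4 to 88.3% per library were whole. They were rounded to whole numbers. Each pair of libraries was scaled with TMM and tested with the edgeR 4.0.16 exact test at dispersion 0, for genes with at least 10 counts over the pair. Calls needed a Benjamini-Hochberg adjusted p below 0.05 and a 2-fold change. Ratios have 95% exact binomial intervals, and a count of 0 was set to a floor of 3. The difference between the responses was tested in edgeR with an interaction term at dispersion 0, and terms for line and treatment with edgeR's quasi-likelihood test and DESeq2 1.42.0 in R 4.3.3. Fold changes used a prior count of 0.125. CPM came from all counts. Coordinates and exon lengths came from GENCODE 29 and promoter windows from RefSeq. Of 20348 identifiers, 20310 had a symbol.

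The 10 genes and the 9 other lists, 3 of them markers, were drawn from general knowledge, with earlier results of these data known. Named from each list other than the markers were called genes of a periplocin comparison, up to 5 by size with a mean of at least 5 CPM, and KMT2A, MLLT3, MEN1 and DOT1L always. For 4 genes the 3 closest by share of scaled CPM were named. On simulated counts, 200 of 200 changed genes were recovered in each pair, with 3, 4 and 0 other calls for the line, K562 and THP-1 comparisons. These pairs were simulated with counting error only. The changed genes were set well above the 10-count minimum, with changes larger than 2-fold. The simulation therefore checks the procedure, and does not measure false calls between cultures or recovery at low counts. No authors' comparison columns were used. HOTAIRM1 and HOTTIP were not analysed here, and the values of some list genes are not reported here. Samples were grouped by cell line and treatment as labelled. Alternatives were other scalings, count minimums, dispersions, fold limits and prior counts.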

Additional observations from a re-analysis of the deposited data

Results flagged for a closer look

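The response of MEF2C to periplocin differed between the lines by a test of the difference itself. The THP-1 log2 fold change was 1.99 above the K562 log2 fold change (SE 0.06), with 3607 and 961 counts in K562 DMSO and periplocin and 9067 and 8089 in THP-1. Each value was 1 library, and the test covers counting error only.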

How the results depend on the processing

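No paired analysis was possible because each condition had 1 library and the labels gave no replicate numbers. The number of genes called between the untreated lines stayed between 7 and 9 under 10 alternatives, against 9 as reported, and the numbers passing in the 4-library fit stayed at 8 for line and 0 for treatment. In K562, the 3 called genes became 1 with a mean of at least 1 CPM, 1 with a log2 fold change of at least 2, and 0 at dispersion 0.16. In THP-1, the 2 called genes became 1 with a mean of at least 1 CPM, 1 at dispersion 0.01, and 0 at dispersion 0.04, at dispersion 0.16 and with a log2 fold change of at least 2. The 1 difference between responses, MEF2C, became 0 at dispersion 0.16. HOXA3 in K562 lost its call with DESeq2 size factors, with a minimum of 1 count and at each raised dispersion, and HOXA6 in THP-1 lost it from dispersion 0.01. Of 267 single-gene values under alternatives, 243 kept their direction and side of the threshold and 22 kept direction only. The other 2 reversed, both for PBX3 in THP-1 after periplocin, which was not called at a log2 fold change of 0.01 and came to -0.000404 with total counts and -0.0203 with total counts without mitochondrial genes. MEF2C between the untreated lines came to 1.00 with total counts and 0.99 without mitochondrial genes. The cause of these changes was not tested. Depth limited HOXA5, HOXA6, HOXA7 and HOXA10 in K562 and MEIS1 in THP-1.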

Other observations

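KDM6A, an H3K27 demethylase and a gene of the Polycomb and HOX boundary list, had 1370 and 2102 counts in K562 DMSO and periplocin and 5 and 3 in THP-1. AFF3, of the cofactor list, had 3 and 9 counts in K562 and 2076 and 1073 in THP-1. Both were named after their values were seen.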
